A study of Saccharomyces cerevisiae with 12 samples.

Results

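This account concerns GCN4 and the genes for the enzymes that make amino acids in Saccharomyces cerevisiae, followed across 2 strains and 2 culture regimes. The genes were chosen by name: GCN4 itself and enzymes of the pathways to histidine, arginine, leucine, isoleucine and valine, lysine, tryptophan, phenylalanine and tyrosine, threonine, serine, proline and asparagine. Of 56 genes listed, 55 were paired with a probe set by the array's platform annotation, each with 1 probe set among the 5716 on the array. TRP1, the phosphoribosylanthranilate isomerase of tryptophan synthesis, was not analysed here.

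Gcn4 is a leucine zipper transcription factor that binds upstream of genes in many amino acid pathways and activates them together, a response called general amino acid control. When an amino acid runs short, uncharged tRNA activates the kinase Gcn2, which phosphorylates the translation initiation factor eIF2. General translation then falls while the ribosomes reach the GCN4 reading frame past the short upstream frames of its leader, so that Gcn4 protein can rise without more GCN4 transcript. The arrays measured transcripts alone, and Gcn4 protein, amino acid pools and fluxes were not analysed here.

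The strains were CEN.PK 113-7D, a prototroph of mating type a, and YSBN2, a prototrophic strain of the FY background with the ho::Ble/ho::HphMX4 genotype, whose ploidy the labels do not state. Each was grown in aerobic batch culture on 30 g/L initial glucose and in a glucose-limited chemostat fed 7.5 g/L glucose with 0.3 g/L ethanol, diluted at 0.1 per h. All cultures were kept at 30 °C and pH 5 in 4 L reactors, and total RNA of 3 biological replicates per group was labelled with biotin and hybridised to Affymetrix arrays, 12 in all. The growth phase of the batch samples is not stated, and glucose supply, the ethanol feed and growth rate changed together between the regimes, so that their parts cannot be told apart.

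Values were log2 signals as deposited, on which a difference of 1 is a 2-fold change, and the members lay between 9.2 and 15.82 on every array, far from the dim end of the scale at 1.69. A difference was called where limma's test gave an adjusted p under 0.05 over all 5716 probe sets. Errors of differences are limma's standard errors (SE), and errors of levels are SDs over 3 arrays. The median within-group SD of the members was 0.107 and the highest 0.723. Array medians ran from 11.02 to 11.37 and were higher in chemostat than in batch arrays of either strain, so each difference between regimes depends in part on how arrays are scaled. Setting the arrays to a common median moved the median difference of all probe sets from 0.09 to -0.19 in CEN.PK 113-7D and from 0.06 to -0.07 in YSBN2. One array was set off from its group: on the third YSBN2 batch array 196 probe sets lay 2 or more from the mean of its 2 partners, against 2 to 77 on the others. No member lay that far off on it, but 5 of the 55 lay at least 0.5 off, against at most 2 on any other array.

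Most amino acid biosynthesis transcripts were lower in the chemostat than in batch in both strains. GCN4 transcript was called higher on the deposited scaling, but not with a common array median. In CEN.PK 113-7D 39 of 55 members fell, 3 rose and 13 were not called, beside 22.2% of all probe sets called lower and 33.9% called higher. In YSBN2 43 fell, 1 rose and 11 were not called, beside 21.9% called lower and 30.6% called higher. The median difference of the members was -0.50 in CEN.PK 113-7D against 0.09 for all probe sets, and -0.82 in YSBN2 against 0.06. Of the 55 members 37 fell in both strains, beside 15% of all probe sets. A further 6 fell in YSBN2 and were not called in CEN.PK 113-7D, beside 351 of all 5716 probe sets. The reverse, a fall in CEN.PK 113-7D without a call in YSBN2, was seen in 2 members, beside 405 of all 5716. With a common array median 47 members fell and 1 rose in CEN.PK 113-7D, while over all probe sets 2143 were called lower and 1452 higher in place of 1271 and 1936. Without the third YSBN2 batch array 42 members fell in YSBN2, beside 22.6% of all probe sets, with a median of -0.71 against 0.07.

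**Figure D1:**
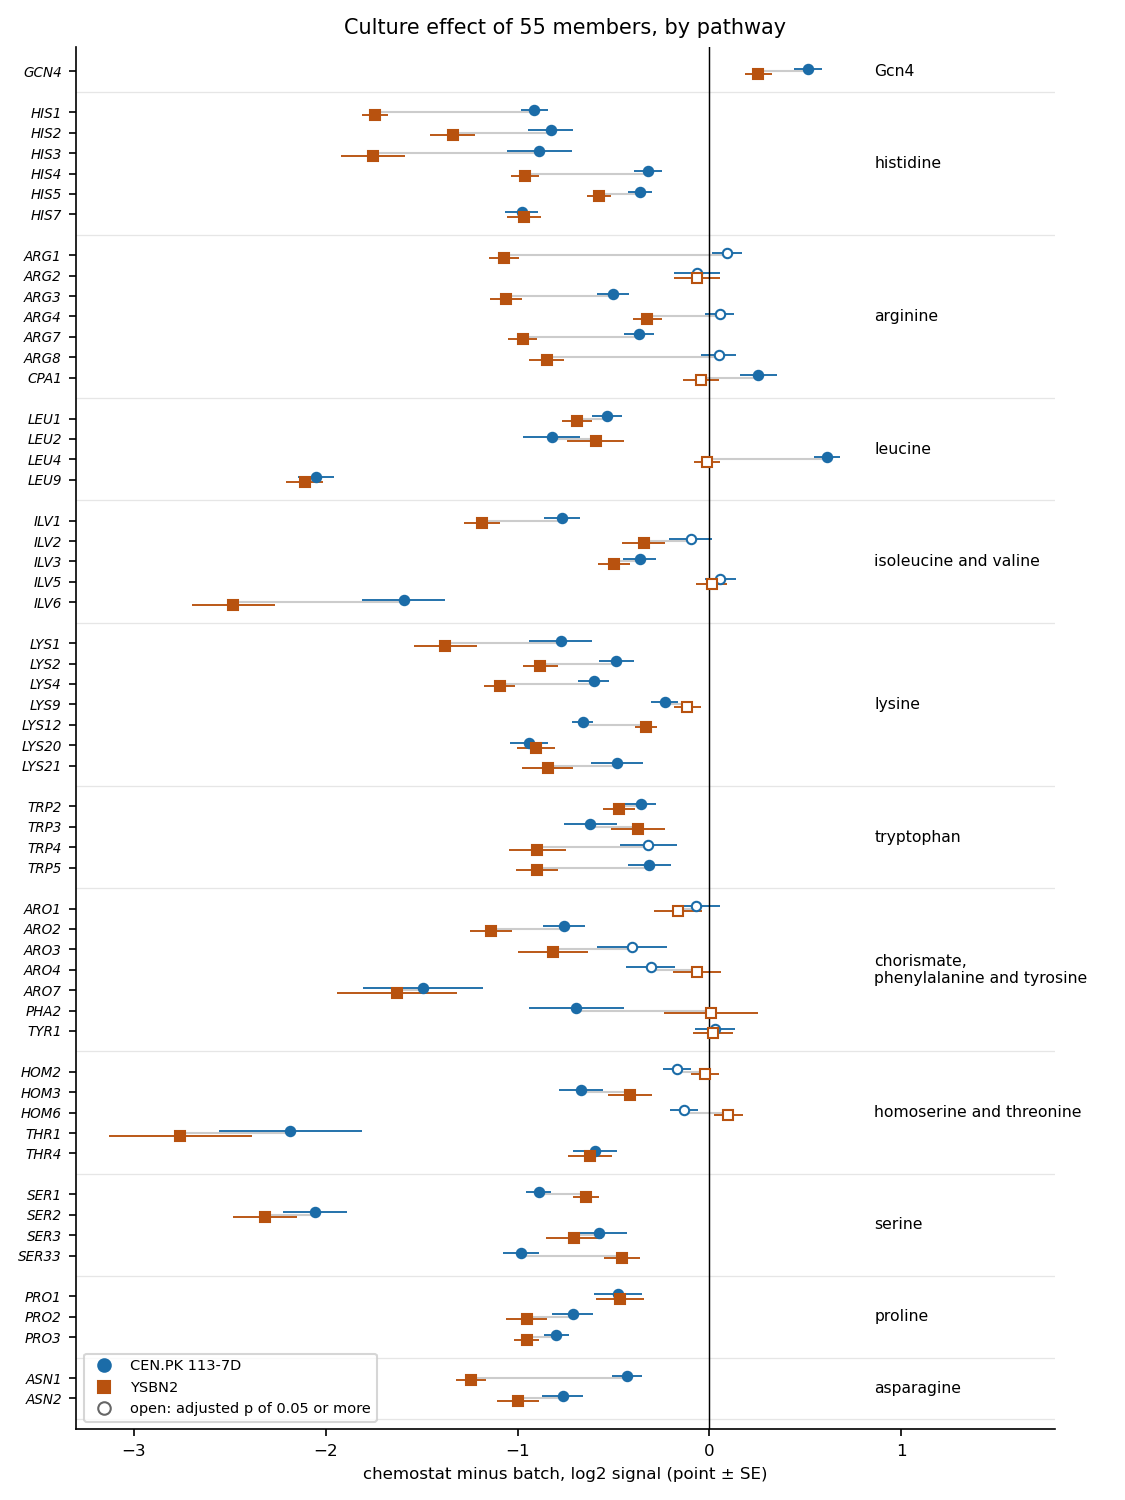
Difference between chemostat and batch for each of the 55 members, in log2 signal ± SE, grouped by pathway, with blue circles for CEN.PK 113-7D, orange squares for YSBN2 and open symbols where the adjusted p was 0.05 or more. The filled points lie left of 0 apart from GCN4 in both strains and CPA1 and LEU4 in CEN.PK 113-7D, and the members with the lowest values are THR1, ILV6, LEU9 and SER2.

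GCN4 gave signals of 15.32, 15.25 and 15.18 in CEN.PK 113-7D batch and of 15.82, 15.74 and 15.75 in chemostat. In YSBN2 it gave 15.55, 15.50 and 15.36 in batch and 15.80, 15.69 and 15.70 in chemostat. The chemostat arrays were all above the batch arrays of the same strain. The rise was 0.52 ± 0.07 in CEN.PK 113-7D, 1.43-fold, at an adjusted p of 2e-04, and 0.26 ± 0.07 in YSBN2, 1.19-fold, at an adjusted p of 0.013. Against a common array median neither rise was called, at 0.23 with an adjusted p of 0.084 and at 0.12 with an adjusted p of 0.34. The YSBN2 rise was also not called in the fit of the compared groups only (adjusted p 0.058). The highest value of any probe set was 16.2, and whether signals this near the top of the scale were compressed was not tested. On the deposited scaling GCN4 was the 1 member called higher in both strains.

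**Figure D2:**
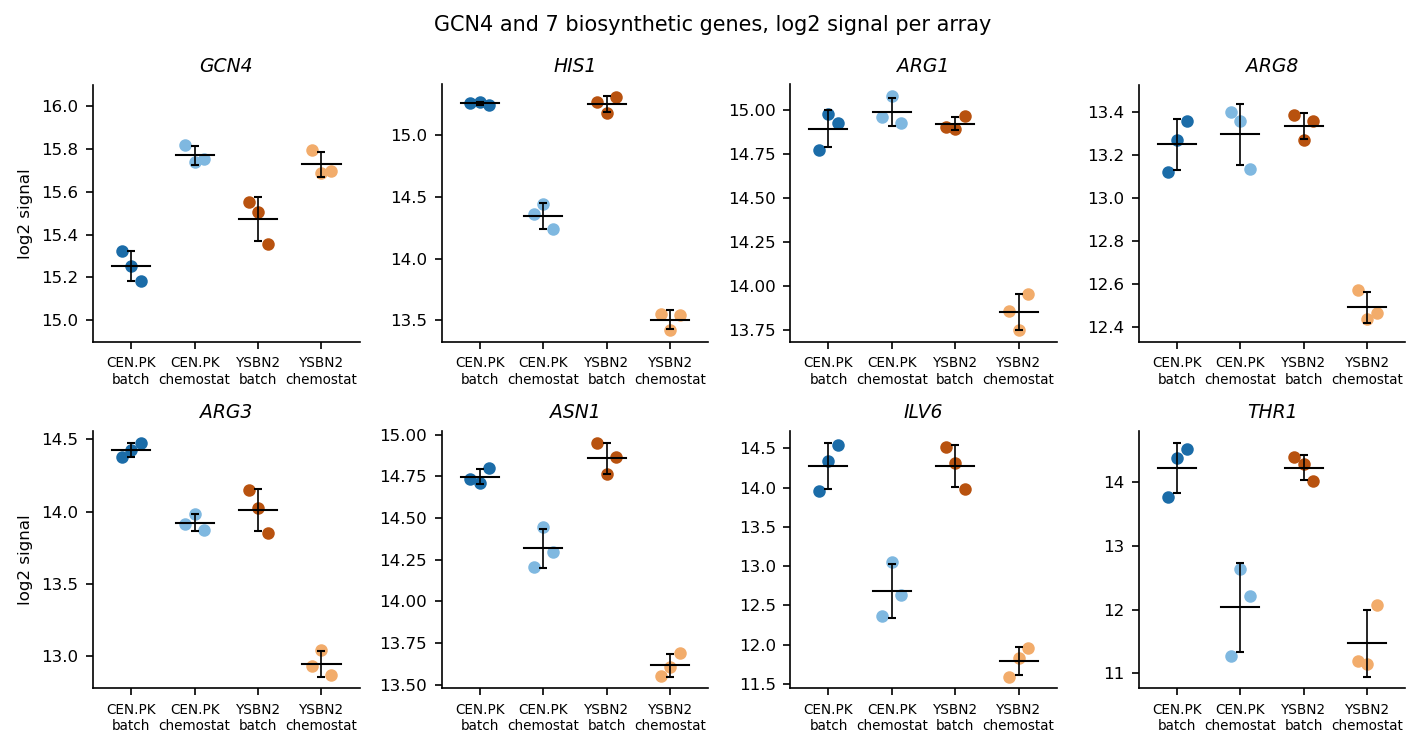
Log2 signal of GCN4 and 7 biosynthetic genes in each of the 12 arrays, as points, with the group mean as a line and bars of ± SD (n = 3); the vertical axis differs by gene and does not start at 0. GCN4 is above its batch values in both chemostat groups, HIS1, ASN1, ILV6 and THR1 are below them in both, and the YSBN2 chemostat points of ARG1 and ARG8 lie below those of the other groups.

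The histidine pathway fell as a whole, with 6 of 6 members lower in each strain and medians of -0.86 in CEN.PK 113-7D and -1.15 in YSBN2. HIS1, the ATP phosphoribosyltransferase that opens the pathway, was at 15.26 ± 0.01 in CEN.PK 113-7D batch and at 14.35 ± 0.10 in chemostat (SD, n = 3). In YSBN2 HIS1 went from 15.25 ± 0.07 to 13.51 ± 0.07 (SD, n = 3). HIS1 fell by 0.91 ± 0.07 in CEN.PK 113-7D and by 1.74 ± 0.07 in YSBN2, from batch levels that differed by -0.01 ± 0.07 between the strains. HIS3, the imidazoleglycerol-phosphate dehydratase, read 13.59, 13.86 and 13.94 in CEN.PK 113-7D batch and 12.59, 13.20 and 12.93 in chemostat. In YSBN2 HIS3 read 13.65, 13.57 and 13.68 in batch and 11.74, 11.75 and 12.14 in chemostat. The HIS3 fall was 0.89 ± 0.17 in CEN.PK 113-7D and 1.75 ± 0.17 in YSBN2, and the groups did not overlap. HIS4, a multifunctional enzyme of several steps, fell by 0.32 ± 0.07 and by 0.96 ± 0.07. HIS5, the histidinol-phosphate aminotransferase, fell by 0.36 ± 0.06 and by 0.58 ± 0.06. HIS2, the histidinol-phosphate phosphatase, fell by 0.83 ± 0.12 and by 1.34 ± 0.12. HIS7, the imidazole glycerol phosphate synthase where the route meets purine synthesis, fell by 0.98 ± 0.09 and by 0.97 ± 0.09, the values of the pathway that lay closest together.

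Arginine genes fell mainly in YSBN2: in CEN.PK 113-7D 2 of 7 fell and 1 rose, with a median of 0.05, and in YSBN2 5 of 7 fell, with a median of -0.85. On arrays set to a common median the CEN.PK 113-7D median of the group was -0.24, against -0.19 for all probe sets. In that fit 3 fell and 0 rose, beside 37.5% of all probe sets called lower and 25.4% called higher. ARG1, the argininosuccinate synthase, gave 14.78, 14.98 and 14.93 in CEN.PK 113-7D batch and 14.96, 15.08 and 14.93 in chemostat. In YSBN2 ARG1 gave 14.91, 14.90 and 14.97 in batch and 13.86, 13.75 and 13.96 in chemostat. Only the YSBN2 chemostat arrays stood below the others, and the difference was 0.09 ± 0.08 in CEN.PK 113-7D (adjusted p 0.34) and -1.07 ± 0.08 in YSBN2. ARG8, the acetylornithine aminotransferase, gave 13.12, 13.27 and 13.36 in CEN.PK 113-7D batch and 13.40, 13.36 and 13.14 in chemostat. In YSBN2 ARG8 gave 13.39, 13.27 and 13.36 in batch and 12.57, 12.43 and 12.47 in chemostat. The ARG8 difference was 0.05 ± 0.09 in CEN.PK 113-7D and -0.85 ± 0.09 in YSBN2, again with the YSBN2 chemostat arrays alone below the rest. ARG3, the ornithine carbamoyltransferase, fell by 0.50 ± 0.08 and by 1.06 ± 0.08. ARG7, the ornithine acetyltransferase, fell by 0.37 ± 0.08 and by 0.97 ± 0.08. ARG4, the argininosuccinate lyase that releases arginine, differed by 0.06 ± 0.08 in CEN.PK 113-7D and fell by 0.32 ± 0.08 in YSBN2. ARG2, the acetylglutamate synthase, differed by -0.06 ± 0.12 in either strain and was called in neither, but with a common array median it was called in CEN.PK 113-7D at -0.35 (adjusted p 0.015). CPA1, the small subunit of carbamoyl phosphate synthase, read 14.30, 14.45 and 14.61 in CEN.PK 113-7D batch and 14.61, 14.78 and 14.74 in chemostat, so that the groups overlapped. In YSBN2 CPA1 read 14.71, 14.56 and 14.64 in batch and 14.56, 14.51 and 14.72 in chemostat. Its rise of 0.26 ± 0.10 in CEN.PK 113-7D (adjusted p 0.044) was no longer called in 7 of 12 fits that left out 1 array each, and it turned to -0.03 (adjusted p 0.83) with a common array median. In YSBN2 CPA1 differed by -0.04 ± 0.10.

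The branched-chain pathways fell in part. In leucine synthesis LEU1, the isopropylmalate isomerase, fell by 0.53 ± 0.08 in CEN.PK 113-7D and by 0.69 ± 0.08 in YSBN2. LEU2, the isopropylmalate dehydrogenase, fell by 0.82 ± 0.15 and by 0.59 ± 0.15. The entry step of that pathway is catalysed by the isopropylmalate synthases Leu4 and Leu9, whose transcripts went in opposite directions in CEN.PK 113-7D. LEU4 gave 14.48, 14.63 and 14.74 in CEN.PK 113-7D batch and 15.26, 15.25 and 15.19 in chemostat, while in YSBN2 it gave 14.86, 14.87 and 14.86 in batch and 14.83, 14.84 and 14.88 in chemostat. LEU9 gave 12.93, 12.86 and 13.02 in CEN.PK 113-7D batch and 10.82, 11.04 and 10.79 in chemostat. In YSBN2 LEU9 gave 12.53, 12.43 and 12.26 in batch and 10.35, 10.33 and 10.21 in chemostat. LEU4 rose by 0.62 ± 0.07 in CEN.PK 113-7D, 1.53-fold at an adjusted p of 4.8e-05, and differed by -0.01 ± 0.07 in YSBN2. LEU9 fell by 2.05 ± 0.10 in CEN.PK 113-7D and by 2.11 ± 0.10 in YSBN2, or 4.15-fold and 4.32-fold.

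Isoleucine and valine share most of their enzymes, and 3 of 5 members fell in CEN.PK 113-7D and 4 of 5 in YSBN2. ILV6, the regulatory subunit of acetolactate synthase, gave 13.96, 14.34 and 14.54 in CEN.PK 113-7D batch and 12.37, 13.06 and 12.63 in chemostat. In YSBN2 ILV6 gave 14.51, 14.32 and 13.99 in batch and 11.59, 11.83 and 11.95 in chemostat. ILV6 fell by 1.59 ± 0.22 and by 2.48 ± 0.22, and no chemostat array reached a batch array. ILV2, the catalytic subunit of the same enzyme, differed by -0.10 ± 0.11 in CEN.PK 113-7D and fell by 0.34 ± 0.11 in YSBN2, a call lost in 4 of 12 fits with 1 array left out. ILV2 was called in CEN.PK 113-7D too with a common array median, at -0.38 (adjusted p 0.017). ILV1, the threonine deaminase that commits threonine to isoleucine, fell by 0.77 ± 0.09 and by 1.18 ± 0.09. ILV3, the dihydroxyacid dehydratase, fell by 0.36 ± 0.08 and by 0.50 ± 0.08. ILV5, the reductoisomerase between these steps, was called in neither strain, at 0.06 ± 0.08 and 0.01 ± 0.08.

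Lysine genes fell in 7 of 7 cases in CEN.PK 113-7D and in 6 of 7 in YSBN2, with medians of -0.60 and -0.88. The homocitrate synthases Lys20 and Lys21 open the pathway. LYS20 gave 15.29, 15.39 and 15.37 in CEN.PK 113-7D batch and 14.24, 14.59 and 14.40 in chemostat, and in YSBN2 15.09, 15.02 and 14.90 in batch and 14.13, 13.98 and 14.19 in chemostat. LYS21 gave 14.52, 14.34 and 14.50 in CEN.PK 113-7D batch and 13.78, 14.21 and 13.92 in chemostat, and in YSBN2 14.67, 14.48 and 14.29 in batch and 13.55, 13.57 and 13.79 in chemostat. Both isoenzyme genes were lower in the chemostat without overlap of the arrays. LYS20 fell by 0.94 ± 0.10 and by 0.90 ± 0.10. LYS21 fell by 0.48 ± 0.13 and by 0.84 ± 0.13, and a fit of the 6 CEN.PK 113-7D arrays with a replicate block gave it an adjusted p of 0.06. LYS4, the homoaconitase, fell by 0.60 ± 0.08 and by 1.09 ± 0.08. LYS12, the homoisocitrate dehydrogenase, read 15.16, 15.19 and 15.30 in CEN.PK 113-7D batch and 14.50, 14.59 and 14.58 in chemostat, and in YSBN2 15.20, 15.16 and 15.18 in batch and 14.84, 14.85 and 14.86 in chemostat. LYS12 fell by 0.66 ± 0.06 and by 0.33 ± 0.06, the smaller fall being in YSBN2. The last steps held both extremes of the pathway in YSBN2. LYS2, the aminoadipate reductase, fell by 0.48 ± 0.09 and by 0.88 ± 0.09. LYS1, the saccharopine dehydrogenase that yields lysine, fell by 0.78 ± 0.16 and by 1.38 ± 0.16. LYS9, the saccharopine reductase before it, fell by 0.23 ± 0.07 in CEN.PK 113-7D, a call lost in 2 of 12 fits with 1 array left out, and differed by -0.11 ± 0.07 in YSBN2, or by -0.25 (adjusted p 0.021) with a common array median.

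Tryptophan genes fell in 3 of 4 measured cases in CEN.PK 113-7D and in 4 of 4 in YSBN2. TRP2, which with Trp3 forms anthranilate synthase, fell by 0.36 ± 0.08 and by 0.47 ± 0.08. TRP5, the tryptophan synthase of the last step, fell by 0.31 ± 0.11 and by 0.90 ± 0.11, the former lost in 4 of 12 fits with 1 array left out. TRP4, the anthranilate phosphoribosyltransferase, gave 12.57, 12.71 and 12.86 in CEN.PK 113-7D batch and 12.31, 12.48 and 12.39 in chemostat, and in YSBN2 12.23, 12.08 and 12.60 in batch and 11.26, 11.32 and 11.65 in chemostat. TRP4 fell by 0.90 ± 0.15 in YSBN2 and differed by -0.32 ± 0.15 in CEN.PK 113-7D, where the adjusted p was 0.099, or 0.038 with the replicate block and 0.0051 with a common array median. TRP3 gave 12.49, 12.70 and 12.74 in CEN.PK 113-7D batch and 11.97, 12.07 and 12.04 in chemostat, and in YSBN2 12.00, 11.86 and 12.45 in batch and 11.76, 11.62 and 11.81 in chemostat. TRP3 fell by 0.62 ± 0.14 in CEN.PK 113-7D. Its difference of -0.37 ± 0.14 in YSBN2 had an adjusted p of 0.0488 and was lost in 11 of 12 fits with 1 array left out, so it is not a firm fall.

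The shikimate route to chorismate and its branches to phenylalanine and tyrosine had 3 of 7 members lower in either strain and, in YSBN2, the pathway median closest to 0, at -0.17. With a common array median 6 of 7 fell in CEN.PK 113-7D and 3 of 7 in YSBN2, beside 37.5% and 27.4% of all probe sets. In CEN.PK 113-7D ARO1, ARO3 and ARO4 were then called at -0.36 (adjusted p 0.042), -0.69 (adjusted p 0.011) and -0.59 (adjusted p 0.0031). The DAHP synthases Aro3 and Aro4, which phenylalanine and tyrosine inhibit respectively, start the route. ARO3 gave 13.49, 13.79 and 14.01 in CEN.PK 113-7D batch and 13.41, 13.40 and 13.27 in chemostat, and in YSBN2 13.74, 14.06 and 14.28 in batch and 13.13, 13.00 and 13.50 in chemostat. ARO4 gave 14.19, 14.32 and 14.41 in CEN.PK 113-7D batch and 13.97, 14.03 and 14.00 in chemostat, and in YSBN2 13.82, 13.80 and 14.30 in batch and 13.90, 13.85 and 13.99 in chemostat. For both genes the third array was the highest of the YSBN2 batch group, and the ARO4 groups of that strain overlapped. ARO3 fell by 0.82 ± 0.18 in YSBN2 and differed by -0.40 ± 0.18 in CEN.PK 113-7D (adjusted p 0.084, and 0.0496 with the replicate block over 12 arrays). ARO4 differed by -0.31 ± 0.13 in CEN.PK 113-7D (adjusted p 0.064, and 0.038 with the same block) and by -0.06 ± 0.13 in YSBN2. With the block in the 6 CEN.PK 113-7D arrays alone, the groups read as paired, ARO3 was not called and ARO4 was (adjusted p 0.024). ARO1, the pentafunctional enzyme of the middle steps, differed by -0.07 ± 0.13 and by -0.17 ± 0.13 and was called in neither strain. ARO2, the chorismate synthase, fell by 0.76 ± 0.11 and by 1.14 ± 0.11. ARO7, the chorismate mutase at the branch to phenylalanine and tyrosine, fell by 1.49 ± 0.31 and by 1.63 ± 0.31, and the third YSBN2 batch array was 1.25 above the mean of the other two. PHA2, the prephenate dehydratase of the phenylalanine branch, fell by 0.69 ± 0.25 in CEN.PK 113-7D, a call lost in 6 of 12 fits with 1 array left out, and differed by 0.01 ± 0.25 in YSBN2. TYR1, the prephenate dehydrogenase of the tyrosine branch, differed by 0.03 ± 0.10 and by 0.02 ± 0.10 and was called in neither strain.

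Homoserine and threonine genes had 3 of 5 members lower in each strain. THR1, the homoserine kinase, gave 13.78, 14.39 and 14.52 in CEN.PK 113-7D batch and 11.27, 12.64 and 12.21 in chemostat. In YSBN2 THR1 gave 14.39, 14.28 and 14.02 in batch and 11.19, 11.15 and 12.07 in chemostat. The fall of THR1, 2.18 ± 0.37 and 2.76 ± 0.37, was the largest of any member in each strain and also the one with the widest spread among the chemostat arrays. THR4, the threonine synthase that follows, fell by 0.59 ± 0.12 and by 0.62 ± 0.12. HOM3, the aspartate kinase, fell by 0.67 ± 0.11 and by 0.41 ± 0.11. HOM2, the aspartate semialdehyde dehydrogenase, differed by -0.17 ± 0.07 and by -0.02 ± 0.07. HOM6, the homoserine dehydrogenase, differed by -0.13 ± 0.07 and by 0.10 ± 0.07, and neither gene was called. Both were called lower in CEN.PK 113-7D with a common array median, HOM2 at -0.45 (adjusted p 0.0023) and HOM6 at -0.42 (adjusted p 0.003). In that fit 5 of 5 members of the group fell there, beside 37.5% of all probe sets.

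All members of the serine, proline and asparagine groups fell in both strains. In serine synthesis from 3-phosphoglycerate the dehydrogenases Ser3 and Ser33 take the entry step. SER3 gave 13.35, 13.22 and 13.17 in CEN.PK 113-7D batch and 12.61, 12.61 and 12.80 in chemostat, and in YSBN2 13.31, 13.23 and 13.84 in batch and 12.69, 12.77 and 12.80 in chemostat. SER33 gave 14.29, 14.19 and 14.20 in CEN.PK 113-7D batch and 13.37, 13.14 and 13.24 in chemostat, and in YSBN2 14.06, 14.03 and 13.84 in batch and 13.67, 13.47 and 13.41 in chemostat. Every chemostat array of either gene was below every batch array of its strain. SER3 fell by 0.58 ± 0.15 and by 0.71 ± 0.15. SER33 fell by 0.98 ± 0.09 and by 0.46 ± 0.09. SER1, the phosphoserine aminotransferase, fell by 0.89 ± 0.07 and by 0.64 ± 0.07. SER2, the phosphoserine phosphatase of the last step, gave 13.18, 13.27 and 13.37 in CEN.PK 113-7D batch and 11.19, 11.26 and 11.20 in chemostat. In YSBN2 SER2 gave 12.42, 12.34 and 12.95 in batch and 9.97, 10.37 and 10.41 in chemostat. SER2 fell by 2.06 ± 0.17 and by 2.32 ± 0.17, and no chemostat array came near a batch array.

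In proline synthesis PRO1, the glutamate kinase, fell by 0.48 ± 0.13 and by 0.47 ± 0.13. PRO2, the glutamyl phosphate reductase, fell by 0.71 ± 0.11 and by 0.95 ± 0.11, and PRO3, the pyrroline carboxylate reductase, by 0.80 ± 0.07 and by 0.95 ± 0.07. Asparagine is made by the synthetases Asn1 and Asn2. ASN1 gave 14.73, 14.71 and 14.80 in CEN.PK 113-7D batch and 14.21, 14.44 and 14.30 in chemostat, and in YSBN2 14.95, 14.76 and 14.86 in batch and 13.55, 13.61 and 13.69 in chemostat. ASN2 gave 14.56, 14.51 and 14.70 in CEN.PK 113-7D batch and 13.67, 13.95 and 13.85 in chemostat, and in YSBN2 14.55, 14.38 and 14.38 in batch and 13.27, 13.45 and 13.59 in chemostat. For both synthetases the batch arrays lay above all chemostat arrays of the strain. ASN1 fell by 0.43 ± 0.08 in CEN.PK 113-7D and by 1.24 ± 0.08 in YSBN2, and ASN2 by 0.77 ± 0.11 and by 1.00 ± 0.11.

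**Figure D3:**
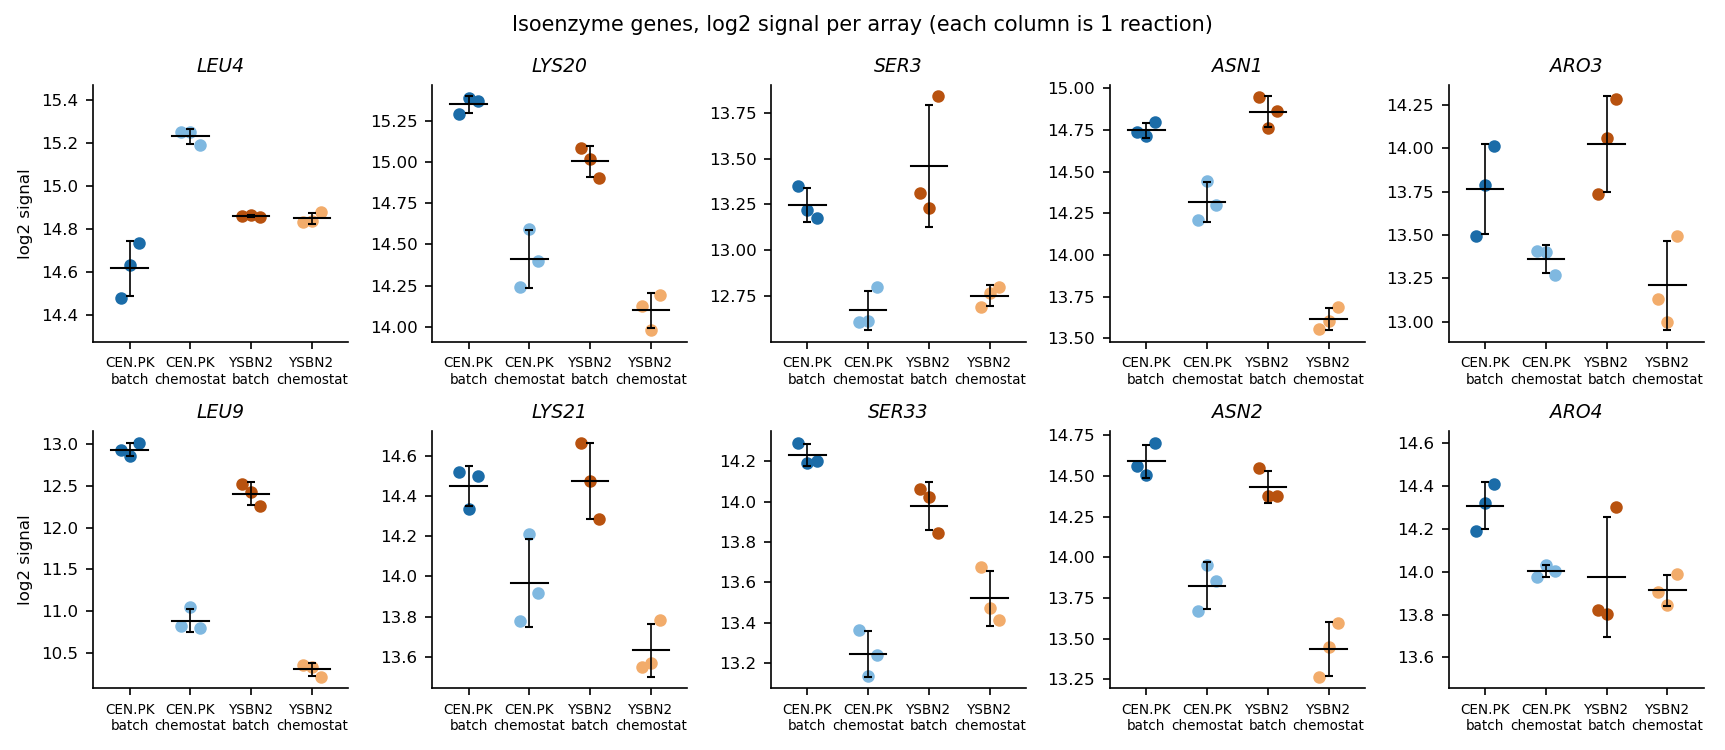
Log2 signal per array of the isoenzyme genes, each column holding the genes of 1 reaction, with points for arrays, a line for the group mean and bars of ± SD (n = 3); axes differ by gene and do not start at 0. LEU4 is higher in chemostat than in batch in CEN.PK 113-7D while LEU9 is lower in both strains, and the lysine, serine and asparagine pairs are lower in chemostat in both.

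Genes around these pathways were described from fixed lists. Of the Gcn2 arm and its target factors, 9 of 11 genes fell in CEN.PK 113-7D and 6 of 11 in YSBN2, none rose, and the medians were -0.65 and -0.44, beside 22.2% and 21.9% of all probe sets called lower. With a common array median 10 of 11 fell in each strain, with medians of -0.94 and -0.57, beside 37.5% and 27.4% of all probe sets. GCN3, the regulatory subunit of the exchange factor eIF2B that senses phosphorylated eIF2, fell by 1.32 ± 0.10 and by 1.21 ± 0.10. GCD1, another eIF2B subunit, fell by 0.97 ± 0.06 and by 0.66 ± 0.06. The kinase gene GCN2 differed by 0.61 ± 0.25 (adjusted p 0.058) and by 0.50 ± 0.25 (adjusted p 0.12). Among 3 genes of Gcn4 degradation, PCL5, a cyclin that directs Gcn4 phosphorylation by Pho85 and is itself a Gcn4 target, had values that differed by strain. PCL5 read 11.54, 11.75 and 11.69 in CEN.PK 113-7D batch and 12.65, 12.72 and 12.31 in chemostat, and in YSBN2 11.51, 11.25 and 12.40 in batch and 11.03, 11.11 and 10.93 in chemostat. It rose by 0.90 ± 0.25 in CEN.PK 113-7D (adjusted p 0.013) and fell by 0.70 ± 0.25 in YSBN2 (adjusted p 0.043), where the third batch array was the highest. Without that array the YSBN2 difference was -0.35 (adjusted p 0.056), and it was called in 3 of 12 fits with 1 array left out. Of 7 other pathway steps measured, 3 rose and 4 fell in CEN.PK 113-7D, and 2 rose and 5 fell in YSBN2. Over all probe sets 33.9% rose and 22.2% fell in CEN.PK 113-7D, and 30.6% rose and 21.9% fell in YSBN2. The branched-chain aminotransferase genes differed: BAT1, for the mitochondrial enzyme, fell by 0.96 ± 0.14 and by 1.30 ± 0.14. BAT2, for the cytosolic one, rose by 1.94 ± 0.16 in CEN.PK 113-7D and fell by 1.29 ± 0.16 in YSBN2. ARO9, the aromatic aminotransferase of the catabolic direction, was at 2.32 ± 0.50 and 5.13 ± 1.78 in CEN.PK 113-7D and YSBN2 batch and at 12.65 ± 0.07 and 11.95 ± 0.13 in chemostat (SD, n = 3), while its partner ARO8 fell by 0.55 ± 0.14 and by 1.75 ± 0.14. Of 8 pathway-specific regulators 2 rose and 1 fell in CEN.PK 113-7D, beside 33.9% and 22.2% of all probe sets. The fall was that of ARG80, whose chemostat arrays, at 2.109, 2.105 and 2.105, were near the dim end of the scale. It was called in 4 of 12 fits with 1 array left out. PHO2, one of those that rose, had overlapping arrays and was not called with a common array median (adjusted p 0.39). In YSBN2 1 regulator rose and 2 fell, beside 30.6% and 21.9%. Those that fell were ARG81, called in 8 of 12 fits with 1 array left out, and BAS1, called in 9. BAS1 differed by -1.10, or by -0.60 without the third batch array (adjusted p 0.013). With a common array median 1 regulator rose and 1 fell in CEN.PK 113-7D, beside 25.4% and 37.5%. ARG82, an inositol polyphosphate kinase needed by the arginine regulators, rose by 1.76 ± 0.16 and by 1.34 ± 0.16. Among 3 breakdown genes, CAR2, the ornithine aminotransferase, rose by 1.94 ± 0.52 in CEN.PK 113-7D. Its batch arrays there were spread, at 8.18, 9.98 and 10.61. With 1 array left out the CAR2 rise ran from 1.24 to 2.45 and was called in 12 of 12 fits. CAR1, the arginase, fell by 1.28 ± 0.40 in YSBN2, or by 0.80 without the third batch array (adjusted p 0.044).

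In batch most members did not separate the strains by call: 10 were lower in YSBN2, 5 higher and 40 not called, beside 10.5% of all probe sets called lower and 18.5% called higher, and the median was -0.03 against 0.02 for all probe sets. Without the third YSBN2 batch array 15 were lower and 6 higher, beside 19.5% and 24% of all probe sets. ARO1 read 13.89, 13.98 and 13.99 in CEN.PK 113-7D batch and 14.96, 14.84 and 14.46 in YSBN2 batch, a difference of 0.80 ± 0.13 (adjusted p 0.0013). HIS2 read 11.76, 12.01 and 12.00 against 12.51, 12.53 and 12.46, a difference of 0.58 ± 0.12. ARG4 read 14.30, 14.43 and 14.40 against 14.67, 14.72 and 14.71, a difference of 0.32 ± 0.08 that was not called with a common array median (adjusted p 0.14). These 3 genes did not overlap between the strains in batch. GCN4 and LEU4 were also higher in YSBN2, by 0.22 ± 0.07 (adjusted p 0.0455) and by 0.25 ± 0.07 (adjusted p 0.024), but the GCN4 call was lost in 10 and the LEU4 call in 4 of 12 fits with 1 array left out, and both with a common array median.

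On the lower side in batch, PHA2 read 10.60, 10.81 and 10.53 in CEN.PK 113-7D and 9.36, 9.32 and 9.95 in YSBN2, a difference of -1.10 ± 0.25 (adjusted p 0.0088). SER2, with the arrays given above, differed by -0.70 ± 0.17 without overlap. TRP3 differed by -0.54 ± 0.14, a call lost in 4 of 12 fits with 1 array left out. The other members called lower were LEU9 at -0.53 ± 0.10, ARG2 at -0.51 ± 0.12, ARG3 at -0.42 ± 0.08, LYS20 at -0.35 ± 0.10, ARG7 at -0.31 ± 0.08, HIS7 at -0.28 ± 0.09 and SER1 at -0.23 ± 0.07. Of these HIS7 lost its call in 9, and LYS20 and SER1 in 4 each, of 12 fits with 1 array left out. Probe sequences were not used, and the part of sequence differences between the strains in these values was not tested.

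In the chemostat more members were lower in YSBN2: 21 were lower, 2 higher and 32 not called, beside 15.3% of all probe sets called lower and 12.9% called higher. The median was -0.27 against -0.01 for all probe sets. Arginine and histidine genes made up 10 of the 21, with 5 of 7 arginine members at a median of -0.81 and 5 of 6 histidine members at a median of -0.42. ARG1 had the largest difference of any member, -1.14 ± 0.08 (adjusted p 1.1e-05), and the arginine genes ARG3, ARG7 and ARG8 were at -0.98 ± 0.08, -0.92 ± 0.08 and -0.81 ± 0.09. ARG2 differed by -0.50 ± 0.12, beside -0.51 in batch. HIS3 differed by -1.03 ± 0.17, HIS1 by -0.84 ± 0.07, HIS4 by -0.48 ± 0.07 and HIS5 by -0.36 ± 0.06. HIS7 at -0.27 ± 0.09 had an adjusted p of 0.0499 and was lost in 10 of 12 fits with 1 array left out.

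The other lower members came from several pathways. TRP4, with its arrays given above, differed by -0.99 ± 0.15, SER2 by -0.97 ± 0.17 and LYS1 by -0.92 ± 0.16. ILV6 differed by -0.89 ± 0.22 (lost in 2 of 12 fits with 1 array left out), ILV1 by -0.65 ± 0.09, LYS4 by -0.61 ± 0.08 and LEU9 by -0.59 ± 0.10. Both asparagine synthetase genes were lower, ASN1 at -0.70 ± 0.08 and ASN2 at -0.39 ± 0.11, the latter lost in 4 of 12 fits with 1 array left out. LEU4 was lower, at -0.38 ± 0.07, whereas in batch it had been higher. LYS20 at -0.31 ± 0.10 was lost in 10 of 12 such fits and with a common array median. The 2 members higher in YSBN2 were ARO1, at 13.80, 14.04 and 13.80 against 14.50, 14.65 and 14.61, a difference of 0.71 ± 0.13, and LYS12, at 0.30 ± 0.06 with no overlap of the arrays. GCN4 transcript did not separate the strains here, at -0.04 ± 0.07 (adjusted p 0.72).

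In the fixed lists, GCN1, which Gcn2 needs to sense uncharged tRNA, was higher in YSBN2 by 0.79 ± 0.16 in batch and by 0.58 ± 0.16 in chemostat. GCN20, the partner of Gcn1, was higher by 0.42 ± 0.09 and by 0.53 ± 0.09. GCN1 was called in both cultures with a common array median too, but GCN20 was not called in batch, at 0.32 (adjusted p 0.063). Of 12 fits with 1 array left out, GCN1 was called in 12 in batch and in 7 in the chemostat, and GCN20 in 12 in each culture. Of the 11 genes of the Gcn2 arm 3 were higher and 1 lower in YSBN2 batch, beside 18.5% and 10.5% of all probe sets. With a common array median 1 was higher and 2 lower in batch, beside 14.8% each way. In the chemostat 3 were higher and 0 lower, beside 12.9% and 15.3%. With a common array median 4 were higher and 0 lower there, beside 14.8% and 13.8%. CDC4, the F-box protein that marks Gcn4 for degradation, was higher by 1.02 ± 0.18 and by 0.91 ± 0.18, and its cyclin counterpart PCL5 was lower in the chemostat alone by call, at -1.54 ± 0.25.

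**Figure D4:**
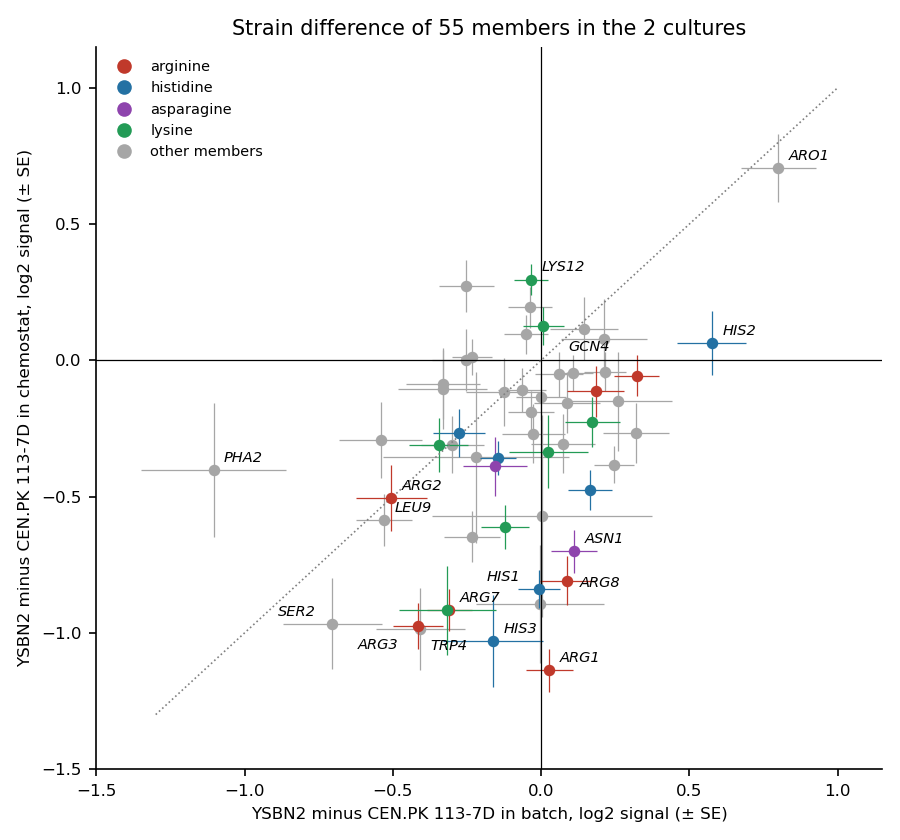
Difference YSBN2 minus CEN.PK 113-7D in chemostat (vertical axis) against that in batch (horizontal axis) for the 55 members, in log2 signal ± SE, with the dotted line marking equal differences. ARG1, ARG8, HIS1, HIS3 and ASN1 are near 0 in batch and between -0.70 and -1.14 in chemostat, while ARO1, ARG2, LEU9 and SER2 differ alike in both.

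Whether the strains responded unequally to the chemostat was tested for every probe set by the interaction of strain and culture. For 12 members the chemostat effect was lower in YSBN2 than in CEN.PK 113-7D and for 2 it was higher, beside 11.1% of all probe sets called lower and 4.34% called higher. The median over members was -0.23 against -0.05 for all probe sets. Of the 12, 5 were arginine genes and 3 histidine genes. The arginine genes ARG1, ARG8, ARG7, ARG3 and ARG4 had differences of effect of -1.16 ± 0.11, -0.90 ± 0.13, -0.61 ± 0.11, -0.56 ± 0.12 and -0.38 ± 0.11. The histidine genes HIS3, HIS1 and HIS4 had -0.87 ± 0.24, -0.83 ± 0.10 and -0.64 ± 0.10. ASN1 at -0.81 ± 0.11, LEU4 at -0.63 ± 0.10, TRP5 at -0.59 ± 0.16 and LYS4 at -0.49 ± 0.12 completed them. The members that fell less in YSBN2 were SER33, at 0.52 ± 0.13, and LYS12, at 0.33 ± 0.08. Their isoenzyme or neighbouring genes SER3 and LYS4 had differences of -0.13 ± 0.20 (adjusted p 0.74) and -0.49 ± 0.12.

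These calls were sensitive to scaling and to single arrays in part. With a common array median 6 of the 12 lower calls held, those of HIS1, HIS4, ARG1, ARG8, LEU4 and ASN1, and so did both higher calls. That left 6 of 55 members lower and 2 higher, beside 8.45% and 7.16% of all probe sets. ARG3, ARG7, HIS3, LYS4, TRP5 and ARG4 then had adjusted p-values of 0.077, 0.07, 0.07, 0.18, 0.12 and 0.35. HIS3 was called in 4, TRP5 in 5, ARG4 in 2 and SER33 in 7 of the 12 fits that left out 1 array each. ARG1, ARG3, ARG7, ARG8, HIS1, HIS4, LEU4 and ASN1 were called in all 12. Without the third YSBN2 batch array 15 members had a lower and 5 a higher effect in YSBN2, beside 15.7% and 10.3% of all probe sets. A negative difference, called or not, was seen in 40 of 55 members beside 57% of all probe sets, and in 31 beside 43.2% with a common array median. For GCN4 the difference of effect was -0.26 ± 0.10 (adjusted p 0.12), and it was not called with a common array median, at -0.11. It was called with quantile normalization at -0.34 (adjusted p 0.036), and with trend and robust eBayes (adjusted p 0.0462). Array weights (adjusted p 0.008) and 1 of 12 fits with 1 array left out called it too. Among the fixed lists PCL5 had -1.60 ± 0.36 (adjusted p 0.016) and BAT2 -3.23 ± 0.23.

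**Figure D5:**
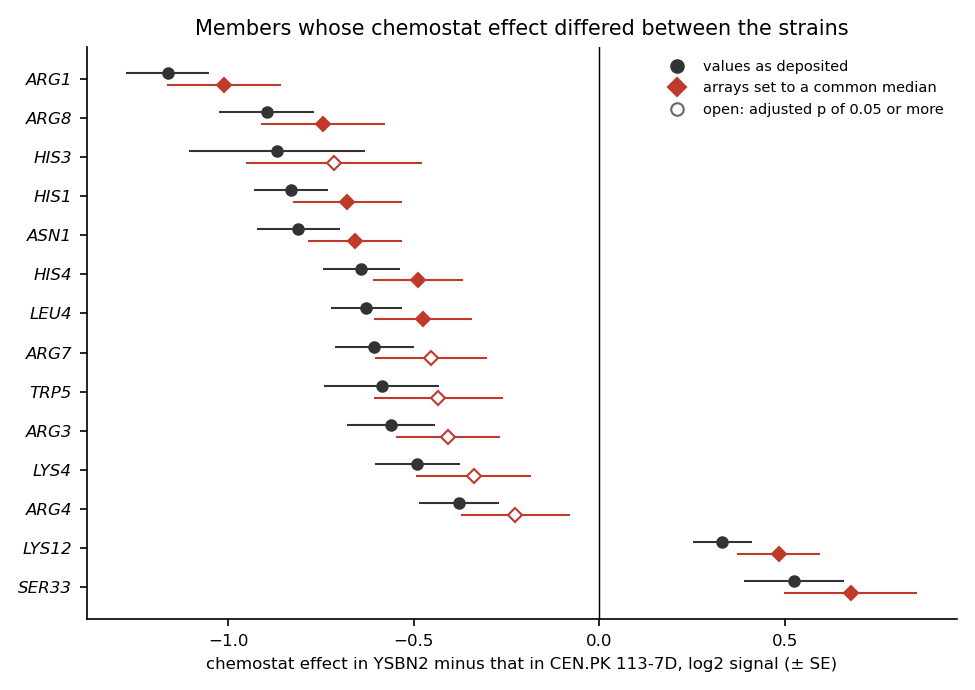
Chemostat effect in YSBN2 minus that in CEN.PK 113-7D for the 14 members called, in log2 signal ± SE, with values as deposited (black circles) and with arrays set to a common median (red diamonds), open where the adjusted p was 0.05 or more. The diamonds lie to the right of the circles, and 6 of them are open.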

How the data were processed

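Total RNA was measured on 12 Affymetrix arrays. The authors deposited 1 value per probe set and array, read here as log2 signal from its range (1.69 to 16.2), since the labels do not state the log base. R 2.6, affy and RMA are named per the submitters' processing notes; the sources used here give no settings. Of 5716 probe sets 5498 had 1 gene name, all matched to the RefSeq table of assembly R64. Precision is limited by 3 arrays per group, and no per-sample column was left out.

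limma 3.58.1 in R 4.3.3 was run on the deposited values (lmFit, 1 mean per group over 12 arrays, 5 contrasts; eBayes with 8 residual and 1.34 prior degrees of freedom; no filter), with Benjamini-Hochberg adjustment over 5716 probe sets and calls at an adjusted p under 0.05. The fit was tested on simulated data. The members and lists were chosen with earlier results of these data known. Any member may be named; values on each array are given for GCN4, isoenzyme pairs and the 3 largest called differences per direction and contrast, and were added for members that the text turns on. Genes outside the members come from fixed lists, not all of whose genes are reported here. Same-numbered arrays correlated in their deviations from group means between CEN.PK 113-7D batch and chemostat (r of 0.5, 0.28 and 0.31). This was read as pairing, on the values alone, and no other pair of groups was so read. Between the strains in chemostat r was 0.6, -0.1 and 0.2, so the highest r was outside the pair read as paired. Between the strains in batch r was 0.16, 0 and 0.15, and between the YSBN2 cultures 0.09, -0.17 and 0.05. The alternatives tried were quantile normalization, a common array median, leaving out the 25% dimmest probe sets, raising values under 6 to 6, trend and robust eBayes, array weights, the replicate block, fits of the compared groups only and leaving out each array. A promoter motif search was not run, as no sequences were used.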

Additional observations from a re-analysis of the deposited data

Results flagged for a closer look

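For 14 members the chemostat effect differed between the strains by the interaction test of limma, which is what marks them here. The values are the chemostat effect in YSBN2 minus that in CEN.PK 113-7D, in log2 signal. Among arginine genes they were -1.16 for ARG1, -0.90 for ARG8, -0.61 for ARG7, -0.56 for ARG3 and -0.38 for ARG4. Among histidine genes they were -0.87 for HIS3, -0.83 for HIS1 and -0.64 for HIS4. ASN1 had -0.81, LEU4 -0.63, TRP5 -0.59 and LYS4 -0.49. SER33 had 0.53 and LYS12 0.33. ARG1 had the lowest adjusted p (0.00016) and ARG4 the highest (0.043).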

How the results depend on the processing

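Of 275 gene and contrast pairs under the alternatives, 5195 values kept their call or their lack of one, 177 lost a call, 126 gained one and 2 reversed. Signs were not compared where neither fit gave a call, so such a value could change direction and count as kept. The 2 that reversed with a call in 1 of the fits were CPA1 in CEN.PK 113-7D culture (-0.029 with a common array median) and PHA2 in YSBN2 culture (-0.45 with quantile normalization). The count of members lower in both strains ran from 35 to 41, with 34 to 37 of the 37 kept, beside 12.8% to 25.4% of all probe sets. The counts of 41 with a common array median and 40 with quantile normalization stood beside 22.1% and 25.4%. With a common array median 1 member rose in CEN.PK 113-7D and 0 in YSBN2, with medians of -0.79 and -0.95. Over all probe sets 25.4% and 25.8% then rose. In that fit 2 members were higher in YSBN2 batch, beside 14.8% of all probe sets. The difference of effects had 6 members lower there, beside 8.45%, and a median of -0.081. With quantile normalization the CEN.PK 113-7D median was -0.63 and 4 members had a higher effect in YSBN2, beside 9.39% of all probe sets. Without the 25% dimmest probe sets 1 did, beside 4.36%. In the chemostat 4 members were higher in YSBN2 with values under 6 raised, with trend and robust eBayes, and with array weights. Over all probe sets 13.4%, 13.6% and 19.9% were higher in these fits. Array weights also gave 20 lower in batch, and 9 higher and 20 lower for the difference of effects, beside 24.8%, 13.1% and 21.5% of all probe sets. The fit of compared groups only gave 0 rises in YSBN2, beside 25.3% of all probe sets, and 3 higher and 6 lower in batch, beside 10.9% and 5.79%. Leaving out 1 array gave 1 to 5 higher effects, beside 2.29% to 10.3% of all probe sets. Such fits had 3 to 6 members higher and 6 to 15 lower in batch, beside 13.6% to 24% and 6.98% to 19.5%. They had 2 to 4 higher in chemostat, beside 7.63% to 18.2%, and a YSBN2 culture median of -0.84 to -0.71. With the replicate block 42 members fell in CEN.PK 113-7D (40 in its 6 arrays alone, a fit chosen after seeing the data) and 43 fell in YSBN2. Of all probe sets 23.3% and 23% fell in the fit of 12 arrays. In that fit 13 members were lower in batch and 20 in chemostat, and 13 had a lower effect, beside 12.1%, 16.9% and 12%. Other settings for genes outside the members were chosen after seeing the data. The cause of these changes was not tested.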
